A study of Mus musculus with 6 samples.

Results

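The interferon-induced antiviral genes of the Ifit, Oas and Mx families and Rsad2 were examined in RNA sequencing libraries of mouse subcutaneous fat, which the labels name as white adipose tissue and which were made from poly-A RNA. The set is a fixed list of 10 symbols, Ifit1, Ifit2, Ifit3, Oas1a, Oas2, Oas3, Oasl2, Mx1, Mx2 and Rsad2, and each named 1 of the 36144 rows of the deposited table. The 6 libraries were 3 titled Tumor and 3 titled WT, which the labels call biological replicates. The Tumor libraries carry the genotype label of a full-body Msra knockout and the WT libraries that of Msra wild type, and orthotopic transplant is the treatment named for all 6. The design text describes pancreatic ductal adenocarcinoma cells placed in hosts of both genotypes and fat taken 4 to 5 weeks later, whereas the series title sets tumour-bearing mice against mice without a tumour. Because the labels disagree on what separates the groups, they are called Tumor and WT throughout, and an effect of the tumour and an effect of the host genotype cannot be told apart. Strain, sex and age of the mice were not stated in the labels. The sample codes run in separate ranges for the 2 groups, so an order of collection that followed them cannot be told apart from the group.

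Type I interferon binds a receptor whose kinases activate a complex that holds STAT2 and IRF9 and switches on genes whose promoters carry an interferon-stimulated response element. Ifit proteins bind foreign RNA and restrain its translation, Oas enzymes sense double-stranded RNA and make the messenger that activates the nuclease RNase L, Mx proteins are dynamin-like GTPases that trap viral particles, and Rsad2 encodes viperin, an enzyme that makes a chain-terminating nucleotide. In tissues free of infection these genes are widely used as a readout of interferon signalling.

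Values were deposited as TPM (length-corrected shares of the transcripts in a library), and the number of reads behind them is unknown. Each library listed 13077 to 14253 genes at 1 TPM or more. The adipocyte markers Adipoq, Plin1, Lep, Cidec, Lipe and Fabp4 were present in every library and summed to 5451 to 20316 TPM in Tumor and 13688 to 25103 TPM in WT libraries. Msra RNA averaged 39.9 ± 13.0 TPM in the Tumor libraries, which the genotype label calls knockout, and 55.5 ± 4.05 TPM in the WT libraries (SD, n = 3 each). The RNA was thus not lost, but its level does not show whether the gene was functional. Directions below follow the titles. The libraries also divided by lymphoid RNA in a way that crossed the groups. The sum of 6 B cell markers was 7.51 TPM in Tumor replicate 1 and 3.83 TPM in WT replicate 3, and 645 to 1942 TPM in the other 4 libraries. T cell and lymph node stroma markers divided the libraries in the same way. These are called lymphoid-poor and lymphoid-rich libraries, and values of the 10 antiviral genes are also given within them.

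All 10 antiviral genes had higher mean TPM in Tumor than in WT libraries, by 1.43-fold for Oas2 to 2.91-fold for Mx1, but none passed the test across all genes. Their summed level was 271, 279 and 223 TPM in Tumor libraries and 101, 149 and 104 TPM in WT libraries. The groups did not overlap in this sum. For 9 of the 10 genes every Tumor library lay above every WT library, against 11.8% of all 14144 genes tested. The exception was Rsad2. The test was limma on log2(TPM + 1) with Benjamini-Hochberg adjustment over all genes tested, and the adjusted p was 0.737 for each of the 10. It called 0% of all genes, with a smallest adjusted p of 0.206. At an unadjusted p below 0.05 there were 6 of the 10, against 3.75% of all genes in the same direction. Without Tumor replicate 1, 2 or 3 there were 7, 3 and 7 of the 10. The shares of all genes in the same direction were 8.2%, 1.39% and 2.02%. The 10 had a median log2 difference of 1.12, against 0.23 over all genes tested, so that they lay 0.88 above the median shift. Differences were positive for 76.8% of all genes.

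How far the groups stood apart depended on scaling. With median-ratio factors the median over all genes came to 0.03 and that of the 10 genes to 0.92, and with upper-quartile factors they came to 0.01 and 0.90. All 10 differences were positive under both. After median-ratio factors 3 of the 10 genes were higher without overlap, Ifit2, Oasl2 and Mx2, against 3.52% of all genes. After upper-quartile factors these were Ifit2, Mx1 and Mx2, against 3.32% of all genes. With median-ratio factors Ifit1, Ifit3, Oas1a, Oas2 and Oas3 overlapped through WT replicate 2, Mx1 through WT replicate 1 and Rsad2 through WT replicates 2 and 3. The unadjusted p was below 0.05 for 4 of the 10 with median-ratio factors, against 0.87% of all genes in the same direction, and for 3 with upper-quartile factors, against 0.764%.

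**Figure D1:**
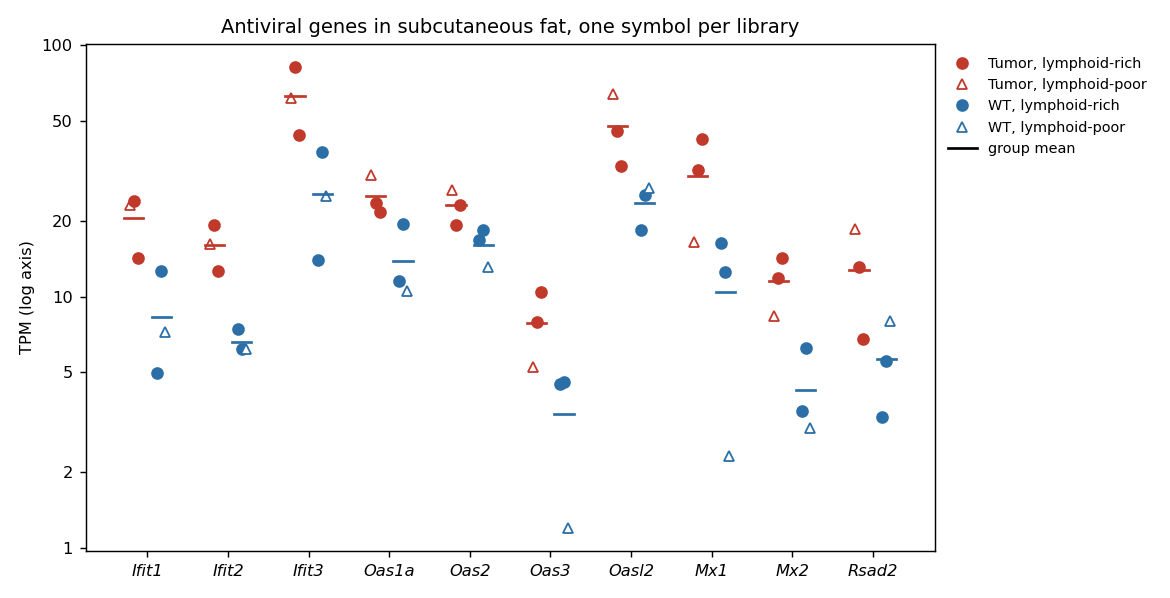
TPM on a log axis for each of the 10 antiviral genes, with Tumor libraries left of WT libraries, filled circles for lymphoid-rich and open triangles for lymphoid-poor libraries, and a line at each group mean. For 9 genes all Tumor symbols lie above all WT symbols, and for Rsad2 the lowest Tumor library (6.78 TPM) lies below the highest WT library (8.02 TPM).

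Levels in TPM are corrected for length and can be compared between genes. Ifit3 and Oasl2 had the highest means in both groups, 62.7 and 47.7 TPM in Tumor and 25.6 and 23.6 TPM in WT libraries. Oas3 had the lowest mean in both, 7.88 TPM in Tumor and 3.42 TPM in WT libraries. Most neighbours in the order of means differed by less than the larger of their SDs. The gap was larger for 2 of 9 neighbouring pairs in Tumor libraries, Oasl2 over Mx1 and Mx2 over Oas3, and for 1 of 9 in WT libraries, Oasl2 over Oas2. In fat as a whole, more cells that express a gene and more RNA per cell cannot be told apart.

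The RefSeq promoter table holds windows for 7 of the 10 genes, Ifit1, Ifit2, Ifit3, Oas1a, Oas3, Oasl2 and Rsad2. The 250 bases before each RefSeq start were searched on both strands for GAAA, any 2 bases and GAAA again (TTTC, any 2 bases and TTTC on the other strand), the repeated core of the interferon-stimulated response element. The motif was found for 5 of these 7 genes, against 3.46% of 27025 genes with windows of the same length. For Ifit1, Ifit3 and Oas1a it occurred 2 times, as for 0.211% of all genes with windows. These 5 windows are shown because they hold the letters that the response element is known by. Each is read along the strand of the gene on GRCm38.p6 and ends at the base before the start, and capitals mark the matches, which overlap each other in Oas1a. The windows are chr19:34640639-34640888 on the plus strand for Ifit1, chr19:34583279-34583528 on the plus strand for Ifit3, chr5:120907526-120907775 on the minus strand for Oas1a, chr5:120777660-120777909 on the minus strand for Oas3 and chr12:26456453-26456702 on the minus strand for Rsad2.
Ifit1: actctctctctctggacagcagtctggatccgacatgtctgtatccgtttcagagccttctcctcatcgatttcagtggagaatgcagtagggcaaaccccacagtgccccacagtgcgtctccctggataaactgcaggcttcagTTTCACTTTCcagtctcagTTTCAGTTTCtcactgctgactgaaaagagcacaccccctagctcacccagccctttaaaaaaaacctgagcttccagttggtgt
Ifit3: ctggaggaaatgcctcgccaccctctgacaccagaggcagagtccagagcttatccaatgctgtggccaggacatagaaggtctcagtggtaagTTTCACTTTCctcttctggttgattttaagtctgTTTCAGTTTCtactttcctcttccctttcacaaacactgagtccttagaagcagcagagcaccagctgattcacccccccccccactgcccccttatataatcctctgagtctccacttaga
Oas1a: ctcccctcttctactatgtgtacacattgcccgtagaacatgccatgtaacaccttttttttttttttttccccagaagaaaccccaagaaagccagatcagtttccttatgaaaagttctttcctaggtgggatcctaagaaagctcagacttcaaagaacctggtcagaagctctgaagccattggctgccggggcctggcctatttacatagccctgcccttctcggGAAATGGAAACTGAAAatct
Oas3: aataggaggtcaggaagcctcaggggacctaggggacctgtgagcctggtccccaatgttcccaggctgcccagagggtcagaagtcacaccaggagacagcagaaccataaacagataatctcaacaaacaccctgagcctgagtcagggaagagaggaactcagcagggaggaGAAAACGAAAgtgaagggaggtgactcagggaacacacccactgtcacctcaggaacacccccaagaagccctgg
Rsad2: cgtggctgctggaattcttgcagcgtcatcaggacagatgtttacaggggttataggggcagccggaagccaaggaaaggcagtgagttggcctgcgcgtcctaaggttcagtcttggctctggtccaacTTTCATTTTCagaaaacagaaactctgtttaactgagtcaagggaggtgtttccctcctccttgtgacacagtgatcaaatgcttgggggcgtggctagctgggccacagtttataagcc

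Matches began 104 and 85 bases before the start in Ifit1, 156 and 122 bases in Ifit3, 20 and 14 bases in Oas1a, 75 bases in Oas3 and 120 bases in Rsad2. In the windows of Ifit2 and Oasl2 these letters were not found. Among the other interferon-induced antiviral genes described below, the motif was present for 5 of 24 with windows. For the other Ifit and Oas genes it was present for 5 of 8.

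The 3 Ifit genes lie in 1 cluster on chromosome 19 (GRCm38, GENCODE M21), Ifit2 from 34550694 to 34576419, Ifit3 from 34583531 to 34588731 and Ifit1 from 34640871 to 34650009. Ifit1, which binds RNA with an unmethylated cap and has a pair of motif matches in its window, stood at 23.2, 24.0 and 14.2 TPM in Tumor libraries and at 4.98, 12.6 and 7.25 TPM in WT libraries. Tumor replicate 3 was the low Tumor library and WT replicate 2 the high WT library, and these came close without overlap. The means were 20.5 ± 5.41 and 8.28 ± 3.92 TPM in Tumor and WT libraries (SD, n = 3 each), with a log2 difference of 1.26 (SE 0.37).

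Ifit2, which has been linked to translational control and cell death, stood at 16.2, 19.3 and 12.6 TPM in Tumor libraries and at 7.47, 6.16 and 6.17 TPM in WT libraries. It had the tightest WT values of the 3 Ifit genes and a wide gap between the groups. The means were 16.0 ± 3.37 and 6.60 ± 0.752 TPM in Tumor and WT libraries (SD, n = 3 each), with a log2 difference of 1.15 (SE 0.22), the smallest SE among the Ifit genes. Its groups stayed apart under both scalings, and no motif match was found in its windows.

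Ifit3, a partner that stabilises Ifit1 in the human complex, stood at 61.9, 82.0 and 44.1 TPM in Tumor libraries and at 14.0, 37.7 and 25.2 TPM in WT libraries. The order of the libraries was close to that of Ifit1, with Tumor replicate 3 low and WT replicate 2 high. The means were 62.7 ± 18.9 and 25.6 ± 11.8 TPM in Tumor and WT libraries (SD, n = 3 each), with a log2 difference of 1.32 (SE 0.40). Of the 31-base words in Ifit3 transcripts, 61.8% also occur in the neighbouring copy Ifit3b, so that the division of reads between them is uncertain. Ifit3b stood at 14.0, 18.4 and 7.27 TPM in Tumor libraries and at 2.49, 6.05 and 5.80 TPM in WT libraries, and the sum of both genes was 51.4 TPM or more in Tumor and 43.8 TPM or less in WT libraries. Ifit1 shares 10.5% of such words with other genes and Ifit2 shares none.

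The Oas genes lie on chromosome 5, Oasl2 from 114896936 to 114912234, Oas2 from 120730333 to 120749853, Oas3 from 120753098 to 120777661 and Oas1a from 120896256 to 120907521. Oas1a, a single-unit synthetase whose motif matches lie nearest to the start, stood at 30.6, 23.5 and 21.7 TPM in Tumor libraries and at 11.5, 19.5 and 10.5 TPM in WT libraries. WT replicate 2 came near the lowest Tumor library. The means were 25.2 ± 4.69 and 13.8 ± 4.90 TPM in Tumor and WT libraries (SD, n = 3 each), with a log2 difference of 0.86 (SE 0.28). Oas1a shares 68.7% of its 31-base words with the copy Oas1g, and their sum was 51.3, 33.6 and 33.2 TPM in Tumor libraries and 20.3, 27.2 and 17.7 TPM in WT libraries.

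Oas2, a synthetase with a tandem pair of units, stood at 26.7, 19.3 and 23.2 TPM in Tumor libraries and at 16.8, 18.5 and 13.1 TPM in WT libraries. The groups barely separated, and this was the smallest difference of the 10 genes, 0.49 on the log2 scale (SE 0.21). It was 0.28 with median-ratio factors and 0.25 among the lymphoid-rich libraries. An annotated gene on the opposite strand, Gm43068, overlaps Oas2, and although the sample titles mention the forward strand, no source says whether reads were counted by strand.

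Oas3, the longest of the synthetases, stood at 5.26, 7.93 and 10.5 TPM in Tumor libraries and at 4.49, 4.56 and 1.20 TPM in WT libraries. The lymphoid-poor library was the lowest of its group in both, and the log2 difference was 1.08 (SE 0.46), or 0.64 without WT replicate 3. Oasl2, a synthetase-like protein with a ubiquitin-like end, stood at 64.2, 45.6 and 33.1 TPM in Tumor libraries and at 18.5, 25.3 and 27.1 TPM in WT libraries. Here the lymphoid-poor library was the highest of its group in both, the reverse of Oas3. Its log2 difference was 0.95 (SE 0.29), or 0.58 with macrophage markers as a covariate.

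Mx1 (97447035 to 97462907) and Mx2 (97535308 to 97560900) are neighbours on chromosome 16. RefSeq lists both as transcribed pseudogenes in the reference strain, C57BL/6J, in which these genes are known to carry disabling mutations, and RNA levels say nothing of protein here. Mx1 stood at 16.5, 32.1 and 42.2 TPM in Tumor libraries and at 16.4, 12.5 and 2.33 TPM in WT libraries. It varied most within a group, by 7.01-fold from the lowest to the highest WT library, and the lowest Tumor value lay just above the highest WT value. The means were 30.3 ± 12.9 and 10.4 ± 7.25 TPM in Tumor and WT libraries (SD, n = 3 each), with a log2 difference of 1.67 (SE 0.70). Without WT replicate 3 this difference was 0.93. Mx2 stood at 8.41, 11.9 and 14.2 TPM in Tumor libraries and at 3.52, 6.26 and 3.01 TPM in WT libraries. Its groups stayed apart under both scalings, with a log2 difference of 1.27 (SE 0.32).

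Rsad2 lies on chromosome 12 from 26442746 to 26456452, 12751 bases from Cmpk2, which encodes a nucleotide kinase that supplies the substrate of viperin. It stood at 18.5, 13.1 and 6.78 TPM in Tumor libraries and at 3.31, 5.57 and 8.02 TPM in WT libraries. Tumor replicate 3 lay below WT replicate 3, so that the groups overlapped. The log2 difference was 1.02 (SE 0.44), and it was 1.39 without Tumor replicate 3 and 0.46 with macrophage markers as a covariate.

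**Figure D2:**
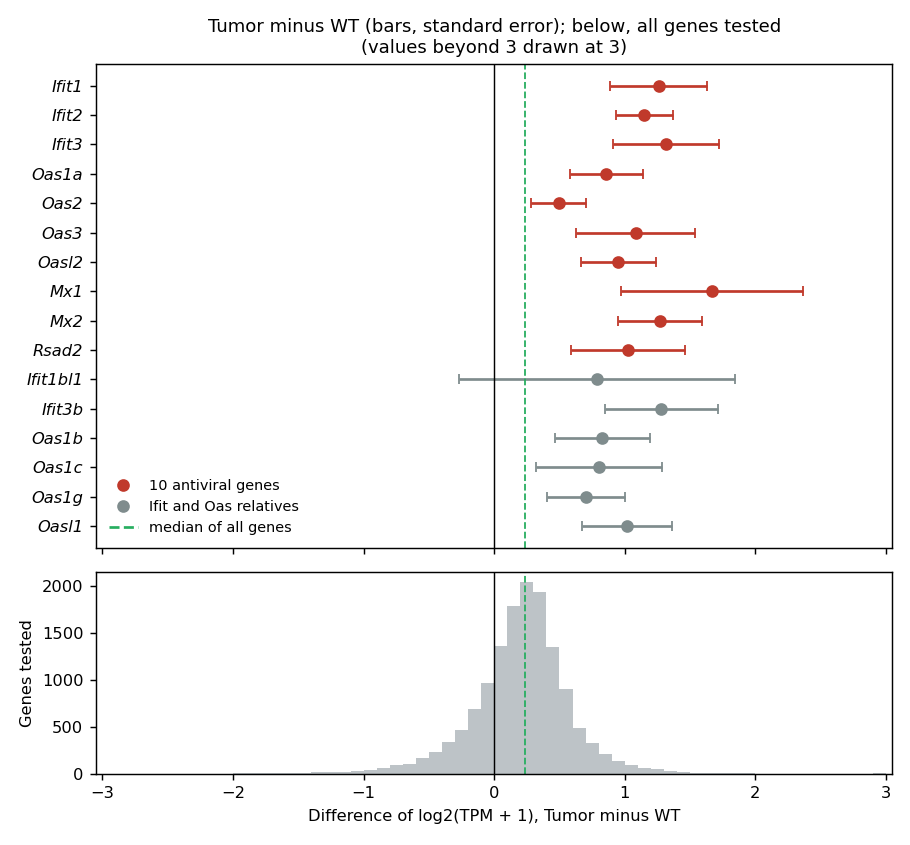
Above, the difference of log2(TPM + 1), Tumor minus WT, with its standard error for the 10 antiviral genes and 6 tested relatives; below, a histogram of the same difference over all 14144 genes tested, with values beyond 3 drawn at 3. The antiviral genes lie between 0.49 and 1.67, right of the median of all genes at 0.23 (dashed line).

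Within the lymphoid-rich and within the lymphoid-poor libraries the 10 genes stood higher in Tumor. Between the 2 lymphoid-poor libraries, Tumor replicate 1 and WT replicate 3, all 10 were higher in the Tumor library, as were 68.2% of all genes. Their median log2 difference there was 1.26, against 0.16 for all genes. This compares 1 library with 1 and has no test. Among the 4 lymphoid-rich libraries all 10 were higher without overlap, as were 41.6% of all genes, with a median of 1.04 against 0.25 for all genes. The lowest adjusted p of the 10 in this limma fit was 0.441. With the B cell markers as a covariate in limma over all 6 libraries the median was 1.15.

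The ratio of Tumor to WT was larger in the lymphoid-poor than in the lymphoid-rich libraries for some genes and about the same for others. For Mx1 it was 7.08 in lymphoid-poor and 2.57 in lymphoid-rich libraries, and for Oas3 it was 4.37 and 2.03. For Oas1a the ratios were 2.90 and 1.46 and for Oas2 they were 2.04 and 1.21. Ifit3, Mx2 and Rsad2 had nearly the same ratio in both, 2.46 and 2.44, 2.80 and 2.67, and 2.31 and 2.24. The difference between these ratios was not tested, since each lymphoid-poor group is 1 library.

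**Figure D3:**
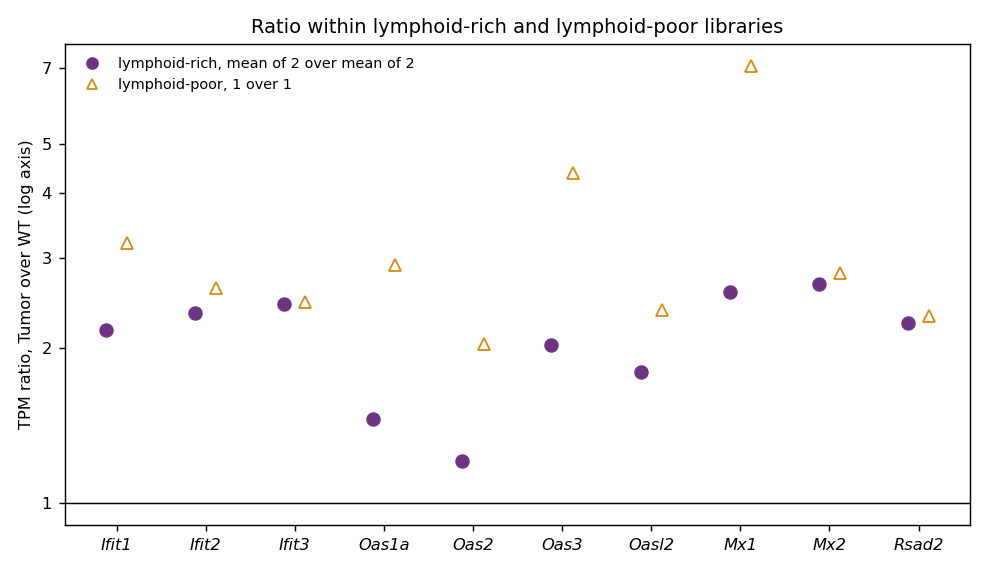
TPM ratio of Tumor over WT on a log axis for each antiviral gene, among lymphoid-rich libraries (filled circles, mean of 2 over mean of 2) and lymphoid-poor libraries (open triangles, 1 over 1). All ratios lie above 1, the lowest is 1.21 for Oas2 in lymphoid-rich libraries and the highest 7.08 for Mx1 in lymphoid-poor libraries.

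The 10 genes also differed in how they followed the lymphoid content inside a group. Mx1 was 2.25 times as high in the lymphoid-rich as in the lymphoid-poor Tumor library and 6.19 times as high in the lymphoid-rich as in the lymphoid-poor WT library, taking the mean of the rich libraries. For Oas3 these ratios were 1.75 in Tumor and 3.76 in WT libraries, and for Mx2 1.55 and 1.63. Rsad2 ran the other way, at 0.535 in Tumor and 0.554 in WT libraries, as did Oasl2, at 0.613 and 0.810. Ifit2 and Ifit3 followed the lymphoid content little, with ratios of 0.988 in Tumor and 1.10 in WT libraries and of 1.02 and 1.03. For Ifit1, Oas1a and Oas2 the direction differed between the groups. Their ratios were 0.825, 0.739 and 0.797 in Tumor and 1.21, 1.47 and 1.35 in WT libraries. Each ratio rests on 1 lymphoid-poor library, and none was tested.

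Macrophages respond strongly to interferon, and some of their markers were higher in Tumor libraries. The 7 macrophage markers summed to 576 to 1199 TPM in Tumor and 543 to 596 TPM in WT libraries, with Tumor replicate 1 the highest, and none was at 0. Of the 7, Cd68, Csf1r and Siglec1 were higher in Tumor without overlap, against 11.8% of all genes tested. Cd68 barely separated, with 83.0 TPM in Tumor replicate 2 and 82.8 TPM in WT replicate 1. Overlap of the markers was judged without scaling factors. With median-ratio factors the share of all genes was 3.52%. C1qa, Mrc1, Cd163 and Adgre1 overlapped, and the log2 differences of Mrc1 and Cd163 were negative, -0.14 and -0.06. Siglec1, itself interferon-induced, stood at 20.7, 34.5 and 36.3 TPM in Tumor libraries and at 15.6, 14.6 and 8.26 TPM in WT libraries. With the mean log2 level of the 7 markers as a covariate in limma, the median log2 difference of the 10 genes was 1.07 and their lowest adjusted p was 0.137. The smallest adjusted p over all genes in that fit was also 0.137. The unadjusted p was below 0.05 for 6 of the 10, against 20.6% of all genes in the same direction. The part of macrophages in the result was not tested, since the covariate holds the interferon-induced Siglec1. Plasmacytoid dendritic cell markers, 6 in number with none at 0, summed to 235 to 326 TPM in Tumor and 135 to 247 TPM in WT libraries. The list holds Bst2, which interferon induces in many other cells. Of its 6 markers, 1 was higher in Tumor without overlap, against 11.8% of all genes tested. The more specific Siglech stood at 2.52, 27.9 and 32.1 TPM in Tumor and at 21.2, 26.5 and 1.05 TPM in WT libraries. The part of plasmacytoid cells in the result was not tested. Skeletal muscle markers, 6 with none at 0, summed to 1761, 559 and 2243 TPM in Tumor libraries and to 19.4, 2705 and 9.57 TPM in WT libraries. Neutrophil markers summed to 13.5 to 102 TPM in Tumor and 25.0 to 342 TPM in WT libraries, and endothelial markers to 249 to 319 TPM in Tumor and 235 to 355 TPM in WT libraries. The parts of adipocyte and muscle RNA in the result were not tested.

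Of 11 further Ifit and Oas genes, 6 were tested and all 6 had higher means in Tumor libraries, with 3 not overlapping, Ifit3b, Oas1g and Oasl1. None of the 6 passed limma. Among all genes tested, 76.8% had a positive log2 difference and 11.8% were higher without overlap. These counts are without scaling factors. As described above, 61.8% of Ifit3 words also occur in Ifit3b and 68.7% of Oas1a words in Oas1g. Ifit3b and Oas1g are thus not independent of the set. Oasl1, which restrains production of interferon by blocking Irf7 translation, stood at 16.2, 14.8 and 20.3 TPM in Tumor libraries and at 7.89, 12.6 and 4.81 TPM in WT libraries, with a log2 difference of 1.01 (SE 0.35). Oas1b, a resistance gene for flaviviruses that RefSeq lists as a transcribed pseudogene in C57BL/6J, averaged 21.5 ± 8.19 TPM in Tumor and 11.4 ± 3.50 TPM in WT libraries (SD, n = 3 each), with overlap. Ifit1bl1 went with lymphoid content, at 1.53, 11.3 and 17.3 TPM in Tumor libraries and at 9.75, 6.69 and 0.341 TPM in WT libraries.

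Interferon genes themselves were hardly seen. Of 20 ligand genes, 17 were listed at 0 in all 6 libraries, Ifnb1 among them, and 0 reached the minimum for testing, 1 TPM in 3 libraries. Ifng, the type II interferon made by T and natural killer cells, stood at 0.148, 1.10 and 1.33 TPM in Tumor libraries and at 0.390, 0.610 and 0.0739 TPM in WT libraries, with the lymphoid-poor library lowest in each group. Ifnk was listed at 0.242 TPM in Tumor replicate 1 and at 0 elsewhere. Since read depth is unknown, a 0 does not show that a gene was silent.

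Of the receptor chains Ifnar1 and Ifnar2, the kinases Jak1 and Tyk2, and the factors Stat2, Irf9 and Irf7, 6 of 7 genes had higher means in Tumor on the log2 scale, 2 of them without overlap, and 0 passed limma. Over all genes tested 76.8% had a positive difference and 11.8% were higher without overlap. The count of positive differences is thus near that background. Overlap here and in the lists below was judged without scaling factors. Irf7, the factor that amplifies the interferon response, stood at 89.1, 116 and 124 TPM in Tumor libraries and at 36.3, 70.2 and 38.9 TPM in WT libraries, with a log2 difference of 1.21 (SE 0.30). Stat2 averaged 57.3 ± 6.11 TPM in Tumor and 34.7 ± 5.24 TPM in WT libraries (SD, n = 3 each), with no overlap. Irf9 averaged 56.9 ± 20.6 and 36.6 ± 8.15 TPM and the receptor chain Ifnar1 35.8 ± 7.98 and 24.6 ± 4.13 TPM in Tumor and WT libraries, both with overlap. The median log2 difference of these 7 genes was 0.54.

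Of 11 genes for RNA sensing, 10 had a positive difference, 4 were higher without overlap (11.8% of all genes) and 0 passed limma, with a median log2 difference of 0.68. Dhx58, an RNA helicase of the RIG-I family, averaged 29.3 ± 5.40 TPM in Tumor and 15.0 ± 2.06 TPM in WT libraries (SD, n = 3 each). Eif2ak2, the kinase PKR that halts translation on double-stranded RNA, averaged 15.9 ± 2.96 and 9.32 ± 0.623 TPM in Tumor and WT libraries. Tbk1, a kinase that activates Irf3, averaged 45.3 ± 8.49 and 28.4 ± 5.75 TPM, and Ddx58, which encodes RIG-I, 49.1 ± 14.6 and 27.9 ± 5.14 TPM, the last with overlap.

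Of 29 other interferon-induced antiviral genes, 28 had a positive difference, 14 were higher without overlap (11.8% of all genes) and 0 passed limma, with a median log2 difference of 0.61. Xaf1, a regulator of cell death, averaged 74.4 ± 6.36 TPM in Tumor and 44.1 ± 3.73 TPM in WT libraries (SD, n = 3 each). Trim25, the ubiquitin ligase that activates RIG-I, averaged 41.3 ± 2.78 and 26.5 ± 0.369 TPM in Tumor and WT libraries. Rtp4 averaged 64.4 ± 9.39 and 39.5 ± 3.71 TPM, and Parp9, a partner of Dtx3l in interferon signalling, 43.5 ± 4.73 and 28.7 ± 1.01 TPM. Of 6 genes that restrain interferon signalling, all had a positive difference and 1 was higher without overlap, with a median log2 difference of 0.43. Against 76.8% and 11.8% of all genes these counts are near the background. The gene without overlap was Usp18, which blocks the type I receptor. It stood at 23.5, 35.2 and 36.2 TPM in Tumor libraries and at 18.8, 22.8 and 8.85 TPM in WT libraries. Overlap in these lists was judged without scaling factors. With median-ratio factors 3.52% of all genes were higher without overlap. Ptpn6, a phosphatase of blood cells, stood at 33.6, 287 and 403 TPM in Tumor libraries and at 197, 110 and 11.7 TPM in WT libraries and so went with lymphoid content. Pias1 averaged 16.9 ± 3.33 TPM in Tumor and 11.4 ± 2.17 TPM in WT libraries, and Ptpn2 28.4 ± 14.5 and 21.6 ± 8.69 TPM, both with overlap.

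**Figure D4:**
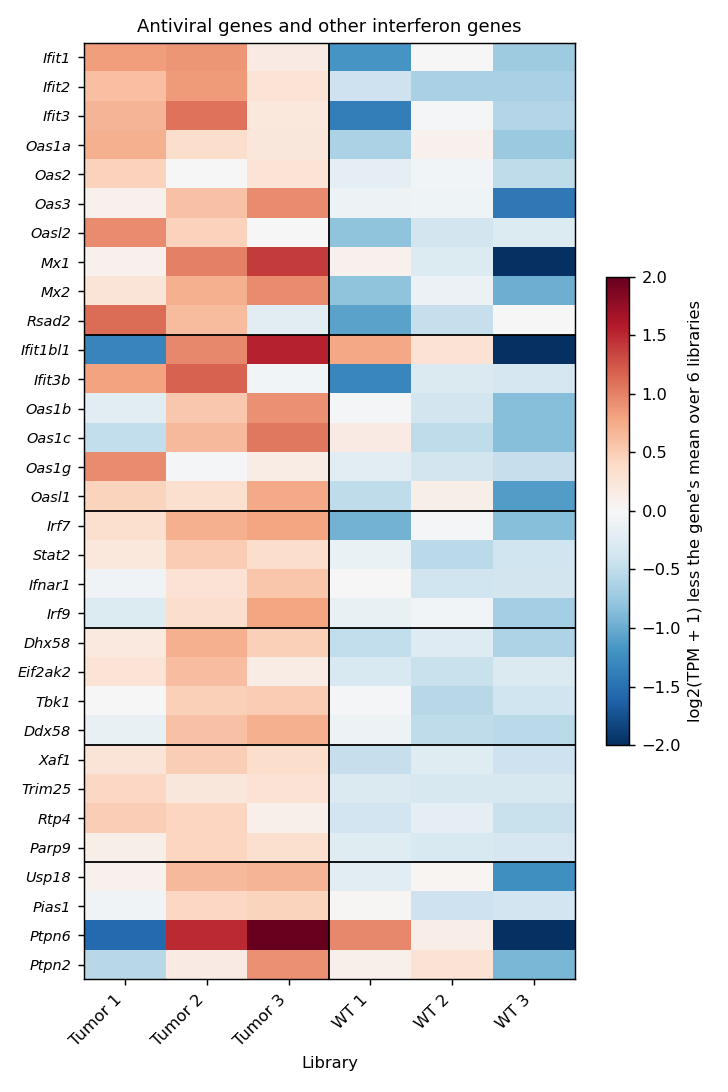
log2(TPM + 1) of each gene less its mean over the 6 libraries, colours capped at 2 in either direction, with Tumor libraries left of WT libraries; blocks from top to bottom are the 10 antiviral genes, tested Ifit and Oas relatives, receptor and signalling genes, RNA sensors, other antiviral genes and genes that restrain the response. Among the 10, Mx1 is darkest blue in WT replicate 3 (2.33 TPM) and darkest red in Tumor replicate 3 (42.2 TPM), whereas Rsad2 is reddest in Tumor replicate 1 (18.5 TPM).

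The mean profile of the 10 genes over the 6 libraries, on the centred log2 scale, was 0.58, 0.66 and 0.42 in Tumor libraries and -0.65, -0.19 and -0.82 in WT libraries. Oas1a lay nearest to it, at a root mean square distance of 0.198, and Mx1 farthest, at 0.820. Outside the set, among 10921 tested genes with a mean of at least 5 TPM, the nearest profiles were those of Mycl, Cd300ld3, Dhx58, Slamf9 and Gpr137b, at distances of 0.153 to 0.231. Mycl, a transcription factor of the Myc family, stood at 12.6, 9.99 and 8.87 TPM in Tumor libraries and at 4.35, 6.64 and 4.20 TPM in WT libraries. These 5 were chosen for their likeness over 6 libraries, which is no test.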

How the data were processed

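RNA was sequenced from mouse subcutaneous fat in 6 libraries, 3 titled Tumor and 3 titled WT. Per the labels' protocols, libraries were made from poly-A RNA with TruSeq chemistry. Per the submitters' processing notes, reads were processed on GRCm38.p6 and DESeq2 is listed without a role. The aligner and quantification tool are not given in the sources used. The authors deposited 1 table named as counts, but its values are TPM, since they are not whole and each column sums to 1000000. Depth is therefore unknown and no count model was used. TPM are shares, so abundant adipocyte, lymphoid or muscle RNA lowers other genes. Of 36144 rows, 26 are named as dates and 2 names stand on more than 1 row.

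Genes that reached 1 TPM in 3 or more libraries were tested on log2(TPM + 1) with limma 3.58.1 (R 4.3.3), using a trended prior variance, robust moderation and group as the sole term. The Benjamini-Hochberg method adjusted p-values over all genes tested, and the threshold was 0.05. All 10 genes of the set were at 1 TPM or more in all 6 libraries. A difference on this scale understates changes of low genes. An exact permutation test of 3 against 3 cannot go below 0.1. The procedure was tested on simulated data. The genes of the set and the lists were chosen with earlier results of these data known. Named genes were all of the set and its relatives, up to 4 per other list by smallest p, and the 5 nearest profiles. A gene of the receptor and signalling list is not reported here and was left out of its counts. The division by lymphoid RNA used a sum of 6 B cell markers above 100 TPM. The alternatives were pseudocounts, filters, scaling factors, moderation, covariates, each library left out, the replicate block, the lymphoid divisions and close paralogs summed. The comparison of the 2 lymphoid-poor libraries was added after seeing the data. Shared words of 31 bases were counted in GENCODE M21 transcripts, and promoters came from RefSeq. Figures were drawn with matplotlib 3.10.9 in Python 3.11.15.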

Additional observations from a re-analysis of the deposited data

How the results depend on the processing

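Over 20 alternatives all 10 genes kept a positive difference, from 0.25 for Oas2 among the 4 lymphoid-rich libraries to 2.42 for Mx1 with the macrophage covariate, and none passed in the 19 with a limma test (adjusted p 0.137 to 1.00). The median of the 10 ran from 0.90 to 1.30, and from 0.97 to 1.24 with single libraries left out. The number higher without overlap was 3 with median-ratio and 3 with upper-quartile factors, and 9 to 10 with a library left out, when the share of all genes was 14.2% to 34.7% (the highest without Tumor replicate 1). Without WT replicate 1, 2 or 3 the unadjusted limma p was below 0.05 for 5, 6 and 6 of the 10. In the same direction it was below 0.05 for 4.52%, 1.89% and 2.05% of all genes. With the B cell covariate it was below 0.05 for all 10, against 10.7% of all genes in the same direction. In the 2 lymphoid-poor libraries the difference was 1.45 for Oas1a and 0.98 for Oas2, a larger move than the spread between replicates, and the cause was not tested. Over all genes, 771 had an unadjusted p below 0.05 (530 higher, 241 lower), against 123 higher and 539 lower with median-ratio factors and 108 and 527 with upper-quartile factors. Over all genes limma called 0, and 1 with the B cell covariate, which was not among the 10. Same-numbered libraries did not deviate together (correlations of -0.76, 0.20 and -0.84). The lymphoid-poor libraries, Tumor replicate 1 and WT replicate 3, had a correlation of 0.85, so this check cannot show whether the numbers were paired. With the replicate block in limma 0 genes were called, 183 had an unadjusted p below 0.05, and the median of the 10 stayed 1.12. The lowest value of the set was 1.20 TPM, and without read totals its counting error is unknown.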

Other observations

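Among the Oas1 copies, Oas1c stood at 4.28, 10.7 and 14.4 TPM in Tumor libraries and at 7.30, 4.22 and 3.14 TPM in WT libraries, with overlap between the groups. Oas1d was listed at 0 in all 6 libraries. Oas1e, Oas1f and Oas1h stayed below 0.3 TPM in every library, and Ifit1bl2 lay between 0.340 and 0.592 TPM, so that 5 of the 11 relatives fell below the minimum for testing.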
